A study of Homo sapiens with 5 samples.

Results

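The genes described here encode the chaperones of the cytosol and the mitochondria with their helpers and regulators, 44 genes listed by name. They were chosen by function, with earlier results of these data known. Each was represented by its single-symbol probe set with the highest mean over the 5 arrays. Of the 44 genes, 38 had such a probe set, among 19775 genes with one on the array. HSPB11 was found under its current symbol IFT25. HSPA1A and HSPA1B share their probe sets with each other, and HSPA8 and TCP1 share theirs with small nucleolar RNA genes, so these 4 have no values here. AHSA1 and HSF2 were not analysed here. A gene is counted below where its level, the log2 of its RMA intensity, was at least 6 on an array compared. This left 36 members. HSPB8 (at most 5.49) and CRYAB (at most 4.79) stayed under 6 on all 5 arrays.

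The samples were 5 cultures of PC-3, a human prostate cancer cell line from a bone metastasis that lacks androgen dependence, with 1 array each and no treatment. A parental culture had been grown flat (2D) and another as spheroids, while a further 3 carried short hairpin RNAs, 1 against GFP (shGFP, the control) and 2 with different sequences against the pseudokinase gene TRIB1 (labelled shTRIB1-1 and shTRIB1-2). The design asks which genes differ with 3-dimensional growth and which with TRIB1. The method of spheroid growth and of hairpin delivery was not given in sources used here, and the labels describe growth in dishes for all 5 samples. Nothing in the labels says how many independent cultures lie behind an array.

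Chaperones bind unfolded or partly folded proteins and keep them from aggregating. HSP70 works through cycles of ATP hydrolysis in which J-domain proteins deliver the client and nucleotide exchange factors such as the BAG and HSP110 proteins release it, and HSP90 completes many kinases and steroid receptors with the help of its own co-chaperones. The ring-shaped CCT complex folds actin and tubulin in the cytosol, and the HSPD1 ring with its HSPE1 lid does so for proteins imported into mitochondria. Many of these genes are switched on by the transcription factor HSF1, which binds heat shock elements, repeats of the unit nGAAn in alternating orientation. In prostate cancer HSP90 is best known for holding the androgen receptor ready for its ligand, although PC-3 cells make little of that receptor.

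Heat shock elements are shown first because they are read from the genome sequence rather than from these data. An element of 3 units (GAA, any 2 bases, TTC, any 2 bases, GAA), searched on both strands in RefSeq windows from 250 bases before to 50 bases after each gene start (GRCh38.p14), was present in 0.608% of the 27305 genes with a window (0.49% of all 35116 windows). Of the 38 members with a window, 7 (18.4%) carried it: HSPD1, HSP90AA1, HSP90AB1, HSPA8, DNAJA1, DNAJB6 and CHORDC1. HSPA14, CRYAB, CCT6A, HSF1, FKBP4 and ST13 had no window. The genes were listed as chaperones, so this share is no independent finding, and a match is a run of letters, not proof of binding. The stretches of the 6 measured members are printed below 5′ to 3′ on the strand of the gene, with the matching run in capitals.
DNAJB6 (chr7:157336861-157336897, + strand): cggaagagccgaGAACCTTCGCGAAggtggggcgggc
CHORDC1 (chr11:90223075-90223121, - strand): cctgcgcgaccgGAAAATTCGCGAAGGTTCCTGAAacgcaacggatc
HSP90AA1 (chr14:102087108-102087144, - strand): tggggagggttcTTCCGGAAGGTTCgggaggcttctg
HSP90AB1 upstream copy (chr6:44247766-44247802, + strand): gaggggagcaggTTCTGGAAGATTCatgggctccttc
HSP90AB1 downstream copy (chr6:44247819-44247855, + strand): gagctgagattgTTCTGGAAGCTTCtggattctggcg
DNAJA1 (chr9:33025264-33025300, + strand): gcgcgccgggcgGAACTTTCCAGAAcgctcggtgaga
HSPD1 downstream start (chr2:197500056-197500090, - strand): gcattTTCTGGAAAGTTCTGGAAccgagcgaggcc
In CHORDC1 3 matches overlap into a run of 5 alternating units, and in HSPD1 2 matches overlap. The element of DNAJA1 lies just after the gene start, at bases 4 to 16, and that of HSPD1 lies in the window of a second start downstream of the main one. The shorter unit pair GAANNTTC, which is contained in every longer match, was found in 15 of the 38 members (39.5%) and in 8.21% of all genes with a window (6.77% of windows).

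A pair of members is divergently transcribed from a shared region. HSPD1 and HSPE1, which encode the mitochondrial chaperonin ring and its lid, start 104 bases apart on opposite strands, and the stretch between the starts is shown because any element in it faces both genes. It reads as follows on the strand of HSPE1, with an E-box (CACGTG, the letters bound by MYC-type factors, in 8.77% of all genes with a window, 7.26% of windows and 4 of the 38 members, 10.5%) in capitals.
HSPD1-HSPE1 (chr2:197500275-197500378, + strand): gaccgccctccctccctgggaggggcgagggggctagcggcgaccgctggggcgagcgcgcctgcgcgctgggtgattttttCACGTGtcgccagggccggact

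Array quality and identity were checked before the comparisons. The median intensity lay between 32.97 and 33.36 on the 5 arrays, and arrays have no sequencing depth, so their number limits the precision. All 7 listed markers of PC-3 cells (among them KRT8, KRT18 and EPCAM) were at a level of 6 or more on every array, whereas PTPRC (blood) was at most 4.03 and CDH5 (endothelium) at most 3.48. Of 3 measured blood markers 1, HBB, reached 6, with 6.15 to 6.25 on all arrays. Of 3 measured prostate luminal markers, listed as low in PC-3, KLK3 was at 6.90 on all arrays and KLK2 at most 4.56. TMPRSS2 was at 5.78 in 2D, 5.62 in spheroids, 6.09 with shGFP and 6.07 and 7.09 with the TRIB1 hairpins. Of the 3 measured endothelial and 4 fibroblast markers, PECAM1 (7.57 in 2D, 9.53 in spheroids) and COL1A1 (7.06 and 8.53) reached 6 on the spheroid array. COL3A1 was 1.98 higher in spheroids but below 6, and COL1A1 was at 6.95 with shGFP and 8.30 and 8.41 with the TRIB1 hairpins. The part of these markers in the results was not tested. Actin gave a ratio of 5′ over 3′ signal from 0.436 to 0.445 for the 3 hairpin samples, but 0.184 for 2D and 0.131 for spheroids. The hairpin arrays thus stand apart in this measure of RNA quality. The same ratio for GAPDH was 0.929 to 0.944 with hairpins, 0.895 for 2D and 0.763 for spheroids. The spheroid array was lowest by either gene, and the part of RNA quality in the spheroid differences was not tested. TRIB1 had a level of 11.97 with shGFP, 11.91 with shTRIB1-1 and 11.76 with shTRIB1-2, all above the 11.04 of 2D and the 11.23 of spheroids. Depletion of this messenger RNA was not clear, and the arrays are named by their labels.

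Across the 5 arrays most chaperone genes varied little, and most were highest in the flat parental culture. The range over the 5 arrays had a median of 0.42 in the 36 members, from 0.16 to 1.54, against a median of 0.62 in all 10843 genes at a level of 6 or more. Only DNAJB4 (1.54), DNAJB6 (1.41) and HSPA2 (1.38) spanned 1 or more, 8.33% of the members against 24.4% of all genes. The 2D array held the highest value for 19 of the 36 members (52.8%), where it did so for 24.3% of all genes. The spheroid array held the lowest for 17 members (47.2%, against 28.1% of all genes). The lowest value fell on the 2D array for 6 members (16.7%, all genes 21%) and on the array labelled shTRIB1-1 for 3 (8.33%, all genes 21.9%). These shares describe 5 single arrays and carry no test.

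**Figure D1:**
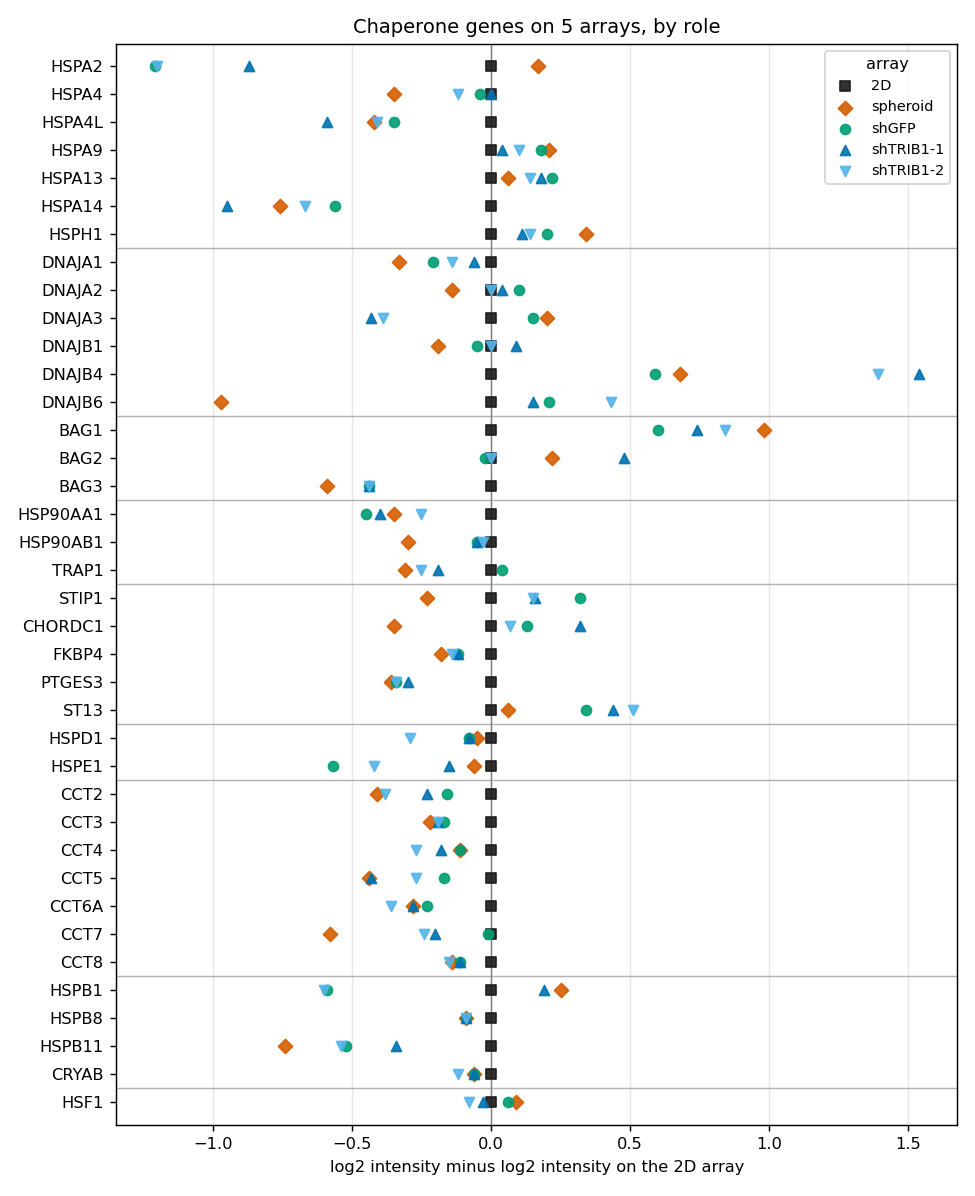
Level (log2 intensity) of each of the 38 chaperone genes with a probe set on every array, drawn as its difference from the 2D array, which lies at 0. Each symbol is 1 array, lines separate the roles, and most genes sit within 0.5 of the 2D array apart from members such as HSPA2, DNAJB4, DNAJB6 and BAG1.

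Spheroid was compared with 2D to see which chaperone genes differ with growth in 3 dimensions. Most were slightly lower in spheroids: 25 of 36 members (69.4%) lay below the 2D value, where 50.9% of 10570 genes did, and the median difference was -0.21 against -0.01 for all genes. Large differences were not frequent. At a log2 difference of 0.5 (1.41-fold), 5 members were lower (13.9%), which is near the 15.7% of all genes. BAG1 and DNAJB4 were higher by that size (5.56%), against 15.1% of all genes. No member differed 2-fold, whereas 5.05% of all genes were at least 2-fold higher and 5.23% at least 2-fold lower. Each condition had 1 array, so these differences have no replicate check and no test. In such bulk RNA, fewer cells that express a gene and less RNA per cell cannot be told apart. The spheroid array also held less RNA of dividing cells. All 14 listed genes of dividing cells, such as MKI67, were lower there, with a median of -2.26, and their part in the chaperone result was not tested.

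The widest contrast among the members was within the J-domain proteins, which deliver clients to HSP70. DNAJB6, which suppresses aggregation of polyglutamine proteins, had a level of 8.50 in 2D, 7.53 in spheroids, 8.71 with shGFP, 8.65 with shTRIB1-1 and 8.93 with shTRIB1-2. The spheroid array alone was low, by -0.97 (1.96-fold) from 2D, and the other 4 arrays lay between 8.50 and 8.93. DNAJB4 went the other way. Its level was 7.09 in 2D, 7.77 in spheroids, 7.68 with shGFP and 8.63 and 8.48 with the TRIB1 hairpins, so that the 2D array was lowest and the spheroid array 0.68 (1.60-fold) above it. Against the mean of 2D and shGFP the difference was 0.38, under the size counted. The remaining members of this family were closer to 2D. DNAJA1, a farnesylated partner of HSP70, differed by -0.34, DNAJB1, the classical heat-inducible partner, by -0.19, DNAJA2 by -0.14 and the mitochondrial DNAJA3 by 0.20.

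Of the 3 BAG proteins, which release clients from HSP70, BAG1 and BAG3 differed in opposite directions. BAG1, which links HSP70 to the proteasome, was at 8.55 in 2D, 9.53 in spheroids, 9.15 with shGFP and 9.29 and 9.39 with the TRIB1 hairpins. The 2D array was the lowest and the spheroid array the highest, a difference of 0.98 (1.97-fold), or of 0.68 from the mean of 2D and shGFP. By another set of BAG1 the array labelled shTRIB1-2 was highest (9.30), above spheroids (9.14), with 2D again lowest (8.25). BAG3, which with HSPB8 directs clients to autophagy, was at 9.94 in 2D, 9.35 in spheroids and 9.50 on each of the 3 hairpin arrays. Here the 2D array was the highest, and the spheroid array was lower by -0.59 (1.51-fold), or by -0.37 from the mean of 2D and shGFP. BAG2, which restrains the ubiquitin ligase CHIP, differed by 0.22.

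Among the HSP70 and HSP110 genes, 4 of 7 measured members were higher in spheroids (all genes 47.3%) and 3 were lower (all genes 50.9%). Their median was 0.06. HSPA14, which works at the ribosome, was at 9.31 in 2D, 8.55 in spheroids, 8.75 with shGFP and 8.36 and 8.64 with the TRIB1 hairpins. It was highest in 2D and lower by -0.76 (1.69-fold) in spheroids. The difference was -0.46 as the median over its probe sets and -0.48 from the mean of 2D and shGFP, both under the size counted. The HSP110 exchange factors differed from each other: HSPH1 by 0.34, HSPA4 by -0.35 and HSPA4L by -0.42. HSPA9 (mortalin), the HSP70 of mitochondria, differed by 0.21 and HSPA2, known from the testis, by 0.17. HSPA13, a microsomal HSP70-like protein, differed by 0.06.

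The HSP90 genes and most of their co-chaperones were lower in spheroids by similar small amounts. The stress-inducible cytosolic HSP90AA1 was at 13.80 in 2D and 13.45 in spheroids, a difference of -0.34. Its constitutive counterpart HSP90AB1 was at 12.38 and 12.08, a difference of -0.30, and the mitochondrial TRAP1 at 10.24 and 9.93, a difference of -0.32. Of 5 measured co-chaperones 4 were lower, as 50.9% of all genes were. PTGES3 (p23), which stabilises the closed form of HSP90, differed by -0.35 and CHORDC1 by -0.35. STIP1 (HOP), which joins HSP70 to HSP90, differed by -0.23 and FKBP4, a partner of steroid receptors, by -0.18. ST13 (HIP), which holds HSP70 in its client-bound state, differed by 0.06.

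All 7 measured subunits of the CCT complex were lower in spheroids, as 50.9% of all genes were, with a median of -0.27. CCT7 was at 11.88 in 2D, 11.30 in spheroids, 11.87 with shGFP and 11.68 and 11.64 with the TRIB1 hairpins, a difference of -0.57 (1.49-fold) between spheroid and 2D. The other subunits lay within 0.5 of 2D. CCT5 differed by -0.43, CCT2 by -0.40, CCT6A by -0.27, CCT3 by -0.22, CCT8 by -0.14 and CCT4 by -0.11. For each of the 7 subunits the 2D array was the highest of the 5 by the sets used, as for 24.3% of all genes. The other sets of CCT4 (6.44 in 2D, 6.54 with shGFP), CCT5 (7.26 and 7.73) and CCT6A (11.06 in 2D, 11.19 with shTRIB1-1) were not highest in 2D. That of CCT2 was. By the sets used the mitochondrial chaperonin was nearly level, with HSPD1 at 13.52 in 2D and 13.47 in spheroids. HSPE1 was at 11.89 and 11.83. Other sets of HSPD1 at a level of 6 or more were lower in spheroids, by -0.25 (13.03 in 2D) and -0.51 (7.06 in 2D).

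The small heat shock proteins and the measured regulator were mixed. HSPB11 (IFT25), named with the small heat shock proteins but a subunit of the transport complex of cilia, was at 11.49 in 2D, 10.75 in spheroids, 10.97 with shGFP and 11.15 and 10.95 with the TRIB1 hairpins. It was highest in 2D and differed by -0.75 (1.68-fold) in spheroids, or by -0.48 from the mean of 2D and shGFP. HSPB1 (HSP27), which holds unfolded proteins without ATP, differed by 0.25. HSF1, the factor that binds heat shock elements, was at 7.40 in 2D and 7.49 in spheroids, a difference of 0.09. Its binding to the stretches printed above was not tested. By the sets used, all 6 measured members with the printed element were lower in spheroids, between -0.97 (DNAJB6) and -0.05 (HSPD1). The median was -0.34, and the other set of DNAJA1 gave 0.03. Of the 25 measured members with a window but no element, 16 were lower, with a median of -0.14. Over all genes with the element 26 of 45 were lower (57.8%), with a median of -0.17, beside 51.2% of the genes with a window and no element. In the other comparisons the counts were mixed. Between shGFP and 2D 4 of the 6 members with the element were lower, with a median of -0.06 beside -0.05 for those without, and with each TRIB1 hairpin 2 of the 6 were lower.

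**Figure D2:**
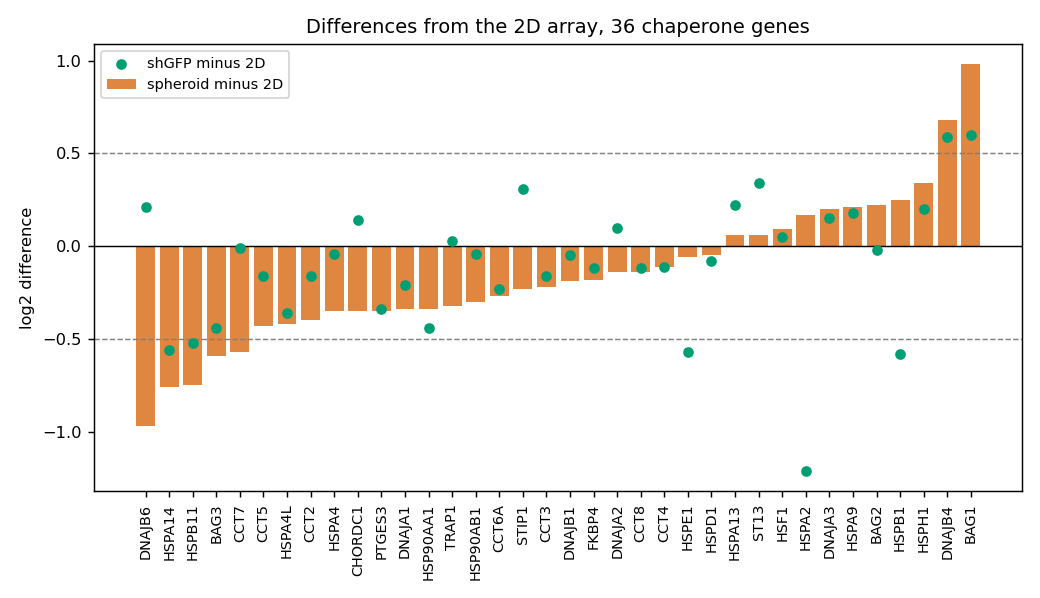
Log2 difference of the spheroid array (bars) and of the shGFP array (points) from the 2D array for the 36 chaperone genes counted, ordered by the bars, with dashed lines at 0.5 either way. DNAJB6 (-0.97) and BAG1 (0.98) are the extremes for spheroids, and HSPA2 (-1.21) is the lowest point for shGFP.

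The shGFP array was compared with the 2D array because it shows how far the hairpin control stood from the parental culture. As many members passed 0.5 here as between spheroid and 2D. Of 36 members, 23 (63.9%) were lower with shGFP, against 47.3% of 10450 genes, and 13 (36.1%) were higher, against 48.9%, with a median of -0.07 beside 0.00 for all genes. At 0.5 or more, 5 members were lower (13.9%, all genes 9.52%) and 2 were higher (5.56%, all genes 8.62%). Both comparisons use the same 2D array, so a low or high value on it enters each of them. All 14 genes of dividing cells were lower here too, with a median of -0.73, and their part was not tested. The arrays also differ in the actin ratio given above, and hairpin expression and that difference cannot be told apart.

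HSPA2 had the largest difference, with 7.24 in 2D and 7.41 in spheroids against 6.03 with shGFP and 6.37 and 6.04 with the TRIB1 hairpins. The 3 hairpin arrays lay near the filter of 6 and apart from the other 2, and shGFP was lower than 2D by -1.21 (2.31-fold). It was the only member past 2-fold, beside 2.11% of all genes 2-fold lower and 2.13% 2-fold higher. HSPB1 was at 9.29 in 2D, 9.54 in spheroids, 8.70 with shGFP and 9.48 and 8.69 with the TRIB1 hairpins, so that shGFP and shTRIB1-2 were low and shGFP differed by -0.58 from 2D. HSPE1 was at 11.32 with shGFP and 11.74 and 11.47 with the TRIB1 hairpins and differed from 2D by -0.57 (1.48-fold). HSPD1, on the other side of the printed shared region, differed by -0.08. HSPA14 (-0.56, or -0.46 as the median over its probe sets) and HSPB11 (-0.52) were lower and BAG1 (0.60) and DNAJB4 (0.59) higher. DNAJB6 and CCT7, low in spheroids, were at 0.21 and -0.01 here.

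Both TRIB1 hairpins were set against shGFP to find chaperone genes that depend on TRIB1. By the sets used nearly all members stayed close to the control. DNAJB4 was higher and DNAJA3, the mitochondrial partner of HSPA9, was lower on both labelled arrays by 0.5 or more, and no other member was. That is 1 of 36 members (2.78%) in each direction, beside 2.5% of 10522 genes higher and 1.69% lower. No member was 2-fold higher or lower on both, as 0.361% and 0.0855% of all genes were. Of the members 16 were lower on both arrays (44.4%, all genes 34.7%), 10 were higher on both (27.8%, all genes 25%) and 6 had opposite signs (16.7%, all genes 32.1%). The median of the mean difference was -0.02, against -0.03 for all genes. Limma called 0 of the 10522 genes at an adjusted p of 0.05 and held 356 (3.38%) at an unadjusted p under 0.05, among them DNAJB4 and DNAJA3. The fit had 1 residual degree of freedom, which the 2 hairpin arrays supply. Limma draws the variance of each gene toward a trend over all genes tested. These p-values thus rest only on the spread between the hairpin arrays, in the gene and in all genes, which may be technical.

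DNAJB4 differed by 0.95 and 0.80 with the 2 hairpins, a mean of 0.87 ± 0.10 (SD, n = 2) or 1.83-fold, with a limma p of 0.0232 and an adjusted p of 0.951. The labelled arrays held its 2 highest values and 2D its lowest, with spheroid and shGFP between. DNAJA3 was at 10.68 in 2D, 10.88 in spheroids and 10.83 with shGFP, and at 10.25 and 10.29 with the TRIB1 hairpins. Both labelled arrays lay below the other 3, by -0.59 and -0.54 from shGFP, a mean of -0.56 ± 0.03 (SD, n = 2) or 1.48-fold, with a limma p of 0.0305 and an adjusted p of 0.951. The mean was -0.49 as the median over its probe sets and -0.49 against the mean of shGFP and 2D, which is under the size counted. Each SD is between the hairpin arrays and leaves out the spread of the lone control.

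**Figure D3:**
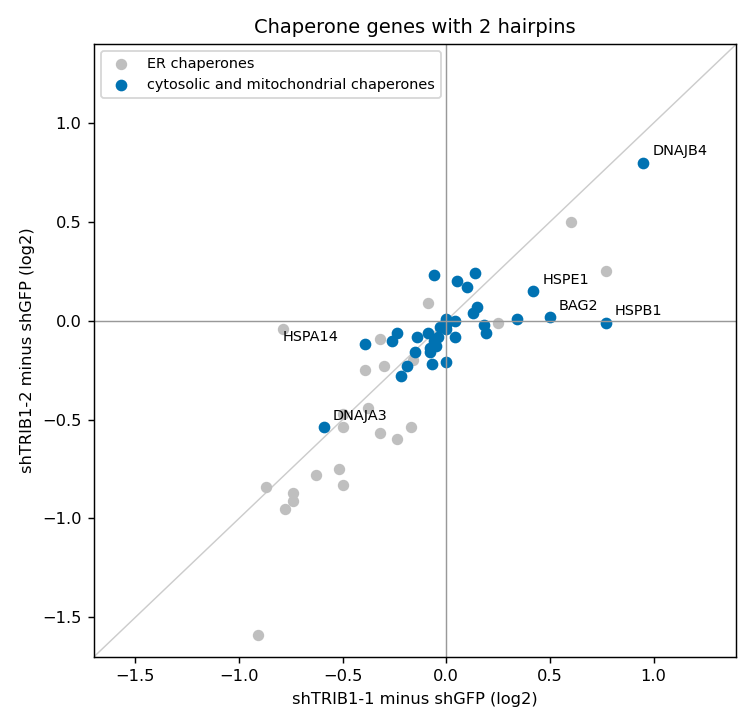
Log2 difference from shGFP on the array labelled shTRIB1-1 (horizontal) and shTRIB1-2 (vertical) for the 36 chaperone genes (blue) and for 23 ER chaperones (grey), with the line of equal values. Most blue points lie near 0, with DNAJB4 high and DNAJA3 low on both arrays, and most grey points lie below 0 on both.

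For most members both hairpins gave like values, with a median size of the difference between them of 0.09, against 0.20 for all genes. HSPB1, BAG2 and HSPE1, picked after their values were seen, lay further apart. HSPB1 differed by 0.77 on the array labelled shTRIB1-1 and -0.01 on shTRIB1-2, a mean of 0.38 ± 0.56 (SD, n = 2). BAG2 differed by 0.50 and 0.02 and HSPE1 by 0.42 and 0.15. For HSPB1 the first labelled array was close to 2D and spheroid, while the second lay beside shGFP. On the array labelled shTRIB1-1 alone 2 members were higher by 0.5 (5.56%, all genes 7.92%), HSPB1 and DNAJB4, with BAG2 just under that size before rounding. Of the 5 mitochondrial members 3 were lower on both labelled arrays, as 34.7% of all genes were. They were DNAJA3 as given, TRAP1 by -0.22 and -0.28 and HSPA9 by -0.14 and -0.08, though another set of HSPA9 gave 0.00 and 0.00. HSPD1 differed by 0.00 and -0.21, and HSPE1 was higher on both. Among the CCT subunits 6 of 7 were lower on both by the sets used, with medians of -0.07 and -0.13, led by CCT7 at -0.19 and -0.23. The other set of CCT6A gave 0.16 and 0.00. BAG3 was at 9.50 on all 3 hairpin arrays, HSP90AB1 differed by at most 0.01 and HSF1 by -0.08 and -0.14. HSP90AA1 differed by 0.05 and 0.20, PTGES3 by 0.04 and 0.00 and HSPH1 by -0.09 and -0.06. The 13 measured genes of dividing cells were all lower on both arrays, with a median of -0.44, and their part was not tested.

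Chaperones of the endoplasmic reticulum (ER), the counterpart in the secretory pathway, gave other counts in the hairpin and shGFP comparisons. Of 23 measured ER chaperones 19 were lower on both labelled arrays and 7 of them by 0.5 or more, with a median of -0.42, where the 36 members had 16, 1 and -0.02. Among all genes 34.7% were lower on both and 1.69% by 0.5 or more, with a median of -0.03. Between shGFP and 2D, 14 ER chaperones were 0.5 or more higher and none was lower by that size, with a median of 0.58, where the members had 2, 5 and -0.07. Among all genes 8.62% were higher and 9.52% lower by that size, with a median of 0.00. Both comparisons share the shGFP array, so a high value on it raises this difference and lowers the hairpin difference. HSPA13, the microsomal member, differed by 0.22 between shGFP and 2D and by -0.04 and -0.08 with the hairpins, but its other probe set gave 0.96, 0.17 and -0.44. Between spheroid and 2D the ER list had a median of 0.05 beside -0.21. The 2D array held the highest value for 0 of the 23 ER chaperones and the shGFP array for 18, where it did so for 15.2% of all genes. These are counts side by side without a test of their difference.

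Other helpers of the same machines were counted from lists made by function. Of 19 further HSP70 and HSP90 partners 8 were higher and 11 lower in spheroids, with a median of -0.07. Among all genes 47.3% were higher and 50.9% lower. NASP, a histone chaperone that binds HSP90, was at 10.44 in 2D and 8.71 in spheroids, a difference of -1.72. FKBP5, an HSP90 co-chaperone of steroid receptors and kin of FKBP4, was at 9.88 in 2D, 8.64 in spheroids, 8.57 with shGFP and 7.37 and 8.04 with the TRIB1 hairpins. The 2D array was high for FKBP5, and both labelled arrays lay below shGFP, by -1.20 and -0.53. CDC37L1, related to the kinase co-chaperone CDC37, was 1.12 higher in spheroids, and the strictly stress-inducible HSPA6 was 1.07 higher, from 5.76 in 2D, below the filter, to 6.83. Of 16 other cytosolic J-domain proteins 8 were higher and 8 lower, led by DNAJB2 at 1.15. The 9 measured genes listed as prefoldins and CCT helpers had a median of -0.01 with none past 0.5, beside the -0.27 of the CCT subunits.

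**Figure D4:**
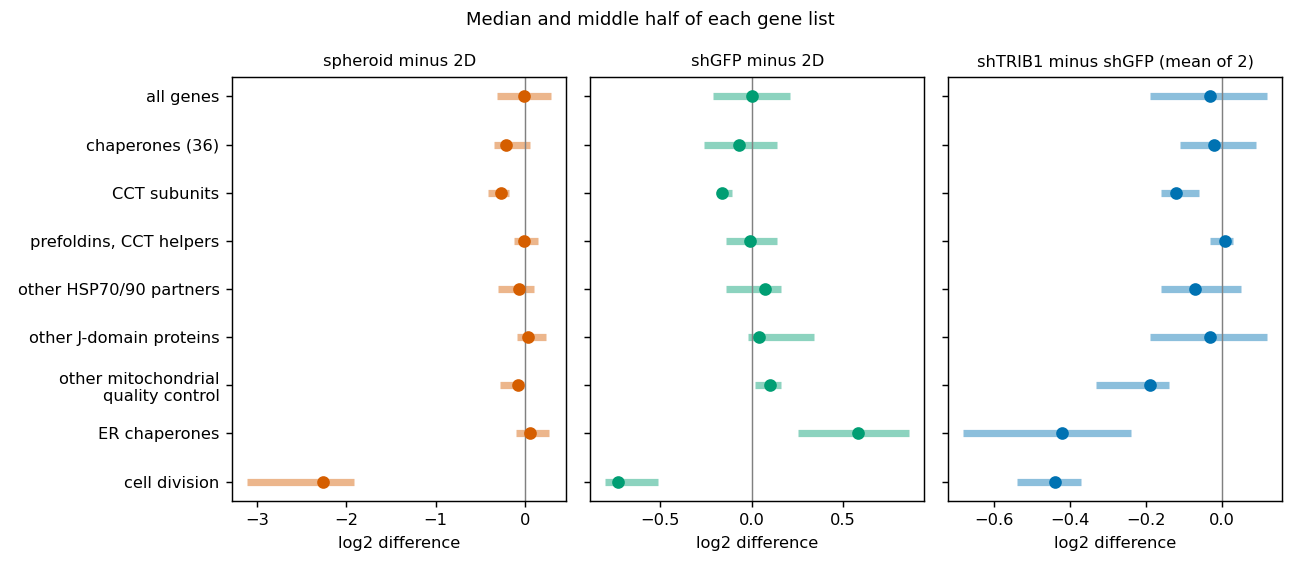
Median (point) and range from lower to upper quartile (bar) of the log2 differences of each gene list in 3 comparisons, with the list of all genes at the top; the horizontal scales differ between panels. The chaperone members lie near all genes in each panel, with a spheroid median of -0.21, while ER chaperones (0.58 for shGFP minus 2D) and cell division genes (-2.26 for spheroid minus 2D) lie apart from 0.

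For 23 members more than 1 probe set reached a level of 6, which shows how far a value depends on the probes. The spheroid differences of such sets had opposite signs in 4 members (HSPA4, HSPH1, DNAJA1 and DNAJB1) and lay 0.5 or more apart in 4 (HSPA13, DNAJB1, ST13 and HSPA14). HSPA13 differed most. Its representative set gave 0.06, and its other set, at 7.89 in 2D and 9.60 in spheroids, gave 1.70. DNAJB1 gave -0.19 and 0.76, and ST13 gave 0.06, 0.32 and 0.89. The sets of HSPA14 (-0.76 to -0.13), BAG1 (0.50 to 0.98), DNAJB4 (0.68 and 1.00), HSPB11 (-0.85 and -0.75), HSP90AA1 (-0.43 to -0.18) and HSP90AB1 (-0.44 to -0.25) kept 1 sign. Between shGFP and 2D the signs were opposite in 5 members (HSPH1, HSP90AB1, DNAJB1, CCT4 and CCT5), and the sets lay 0.5 or more apart in 3 (HSPA13, HSP90AB1 and CCT5). DNAJB6, BAG3 and CCT7 rest on 1 single-symbol set each. With the hairpins, the other set of DNAJB4 was higher as well (0.78 and 0.52) and the other set of DNAJA3 lower (-0.43 and -0.39). Some members had a set that lay further from shGFP than the set used. Among them were ST13 (0.40 and 0.39) and HSPD1 (-0.01 and -0.70). The other set of HSPA4L gave -0.45 and -0.65, but from a level of 5.86 with shGFP, below the filter.

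**Figure D5:**
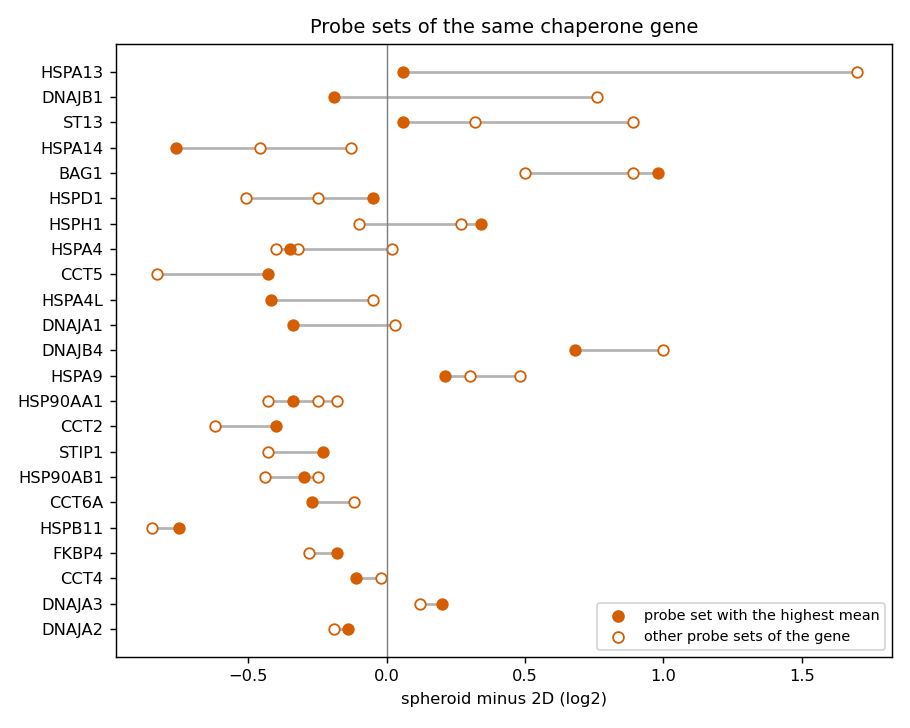
Spheroid minus 2D difference (log2) of every probe set at a level of 6 or more for the 23 members with more than 1, ordered by the gap between sets; filled points are the sets used above. HSPA13 (0.06 and 1.70), DNAJB1 and ST13 have the widest gaps.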

How the data were processed

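The authors deposited 1 linear intensity per probe set and array. RMA is named in the submitters' processing notes; that the scale is linear was read from the values. For its version, chip definition file and genome build nothing was given in sources used here. Quantile normalization within RMA would hide a shift of most genes. Log2 was taken without a pseudocount. Of 54675 probe sets 41097 carried 1 symbol, 1801 several and 11777 none, from the platform annotation; those with several or none named no gene. Symbols were checked in the RefSeq gene table of GRCh38.p14, from which promoter windows also came. Of the 44 listed genes 38 matched a window.

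Groups were taken from the sample titles. Spheroid and shGFP were set against 2D without a test, and the TRIB1 hairpins against shGFP by limma 3.58.1 (R 4.3.3) (trend over mean level; Benjamini-Hochberg adjustment over all genes tested). The fit was tested on simulated data. Members at 0.5 or more in a comparison were given their value on every array; from other lists, genes past 1 in spheroids or 0.5 with both hairpins could be named. Level filter, probe set rule, normalization, pseudocount, reference, hairpin and trend were varied. The members and lists were chosen with earlier results of these data known.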

Additional observations from a re-analysis of the deposited data

How the results depend on the processing

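Of the recomputed medians and counts of members, 61 stayed within the spread between hairpins or within 1.5 times the count, and 13 did not. The 61 include the limma counts, which were 0 under every setting. No difference of 0.5 or more reversed. Between spheroid and 2D, members higher by 0.5 or more numbered 1 at a level filter of 8 and 4 as the median over probe sets (2 in the report), and members lower numbered 3 without _s_at and _x_at probe sets and 2 against the mean of 2D and shGFP (5 in the report). Between shGFP and 2D the higher members numbered 1 at a filter of 8 and 4 as the median over probe sets (2), and the lower 1 without _s_at and _x_at probe sets (5), a setting that measures fewer members. With the TRIB1 hairpins the median was -0.07 without _s_at and _x_at probe sets and -0.07 against the mean of shGFP and 2D (-0.02), and the lower members numbered 0 without those probe sets, as the median over probe sets and against that mean (1). Leaving out a hairpin gave medians from -0.05 to 0.00 and 1 to 2 higher members, where without the array labelled shTRIB1-2 HSPB1 joined DNAJB4. The cause of these shifts was not tested beyond the smaller number of genes or probe sets. Limma called 0 genes under every alternative, with smallest adjusted p-values from 0.557 to 0.991. No paired analysis was possible because the groups share no replicate numbers in the labels. Single arrays limit every difference from 2D, and signals near a level of 6 lie close to background.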

Other observations

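Other mitochondrial quality control genes were mostly lower with the TRIB1 hairpins. Of 14 measured, 11 had lower values with each hairpin and none had higher values with each, with a median of -0.19, beside 34.7% of all genes lower on both. None of the 11 was lower by 0.5 on both. The following genes were chosen after their values were seen. GRPEL2, a nucleotide exchange factor of HSPA9, differed by -0.37 and -0.35, the matrix protease LONP1 by -0.62 and -0.25, the disaggregase CLPB by -0.36 and -0.30 and the inner membrane protease subunit AFG3L2 by -0.36 and -0.27. DNAJA3, TRAP1 and HSPA9 among the chaperones were lower on both as well by the sets used, while HSPE1 was higher on both. Between shGFP and 2D, 11 of the 14 were higher (all genes 48.9%), with a median of 0.10, and these comparisons share the shGFP array. Between spheroid and 2D, 11 were lower (all genes 50.9%), with a median of -0.08, led by GRPEL1 at -0.63.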
